A study of Mus musculus with 12 samples.

Results

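The control line of an SDHC-loss cell model was followed over 20 days of culture by reduced representation bisulfite sequencing (RRBS), and its early libraries (days 0, 5 and 9) were compared with its late libraries (days 12, 16 and 20). The 6 control libraries were taken from the 12 libraries of the series by their genotype and day labels, and the other 6 belong to the experimental line. The question addressed was how far DNA methylation drifted in culture while SDHC, a membrane subunit of succinate dehydrogenase, was still encoded by a wild type allele. The control line carries R26M2rtTA/+;TetOcre;Sdhcfl/wt, so that doxycycline turns on Cre recombinase, which rearranges its single floxed Sdhc allele and leaves the wild type allele in place. The experimental line carries the same transgenes with both Sdhc alleles floxed. Both are mouse embryonic fibroblasts (iMEFs) immortalised with SV40 from day 13 embryos, grown in low glucose medium with serum, and each is a single line. Day 0 was sampled before doxycycline, and the other days were sampled during treatment at 1 µg/mL. Time in culture and doxycycline therefore cannot be told apart between day 0 and the rest, and from day 5 on all libraries had doxycycline. There was 1 library per day, so the spread given here is between time points of a single culture series, and p-values measure that spread and not the spread between independent cultures.

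In mammalian cells DNA methylation sits mostly on the cytosine of CpG dinucleotides. DNMT1 with its partner UHRF1 copies the pattern to the new strand at each division, DNMT3A and DNMT3B add methylation to unmethylated sites, and the TET dioxygenases start its removal. TET enzymes use 2-oxoglutarate and are inhibited by succinate, the substrate of succinate dehydrogenase, which is why a line that keeps the enzyme serves as the reference. Most CpG-rich promoters are unmethylated, whereas imprinting control regions, many germline genes and most of the genome outside promoters carry methylation, and the pattern of immortalised lines can shift with passage. RRBS reads fragments cut at CpG-containing restriction sites after bisulfite has converted unmethylated cytosines. The value used here is the beta value, the share of reads called methylated at a cytosine, from 0 to 1. In bulk DNA, methylation of a share of the cells and partial methylation of every cell cannot be told apart.

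The control libraries listed between 932307 and 1716381 CpG cytosines, with the fewest at day 12. Of 2034280 autosomal cytosines listed in any of them, 688479 were listed in all 6 and were used. Among these, 199725 (29.0%) had the same value in every library, 175334 of them at 0 and 24391 at 1. Read counts do not accompany the values, the depth of a beta value is therefore unknown, and no interval can be given for a single cytosine. The shape of the values differed between libraries. The share of cytosines with a beta value between 0.2 and 0.8 was 19.4%, 24.6% and 23.1% in the early libraries and 9.26% (day 12), 19.5% and 23.6% in the late ones. Exactly 0 was given for 50.04% of the cytosines at day 12 and for between 36.0% and 43.6% in the other libraries. The 2 cytosines of a CpG, on opposite strands, differed on average by 0.152 at day 12 and by 0.0899 to 0.132 elsewhere. Day 12, which belongs to the late group, thus held the fewest cytosines, the fewest intermediate values and the largest difference between strands, and the main comparisons below are also given without it. Its part in the results that keep it was not tested further.

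**Figure D1:**
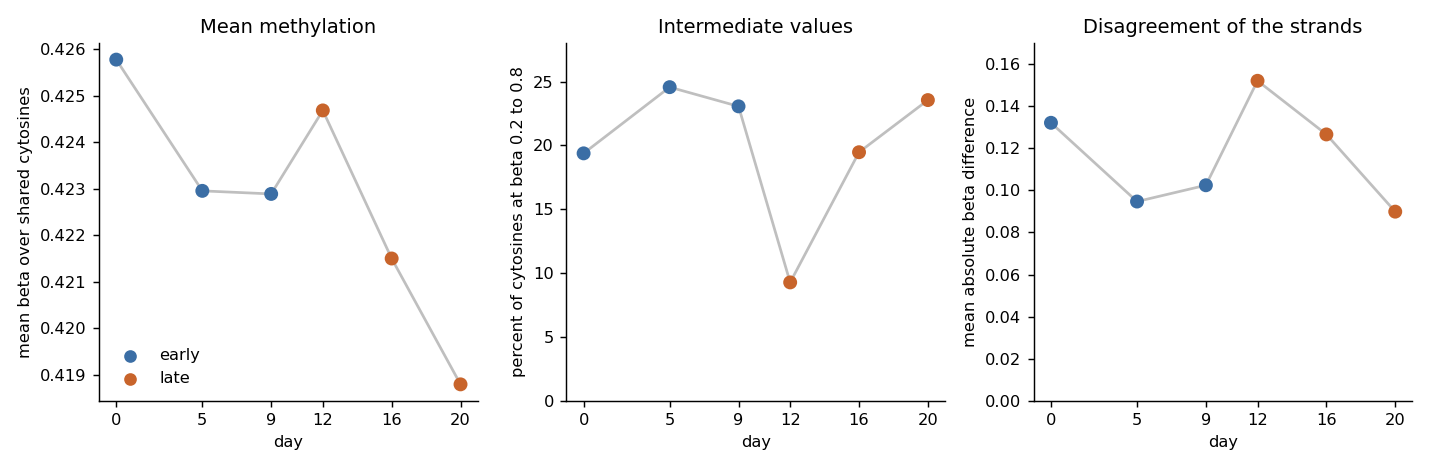
The 6 control libraries by day, with the mean beta value over 688479 shared autosomal cytosines (left), the percent of them at a beta value from 0.2 to 0.8 (middle) and the mean absolute beta difference between both strands of a CpG (right); early days are blue, late days orange, and grey lines only join the points. The left axis spans less than 0.01 in beta and does not start at 0; day 12 has the lowest share of intermediate values, 9.26%, and the largest strand difference, 0.152.

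Mean methylation moved little. The mean beta value over the 688479 cytosines was 0.426, 0.423 and 0.423 in the early libraries (days 0, 5 and 9, always in this order) and 0.425, 0.422 and 0.419 in the late ones (days 12, 16 and 20). Day 20 was the lowest and day 12 lay between the early values. The early mean was 0.424 ± 0.00165 (SD, n = 3) and the late mean 0.422 ± 0.00295 (SD, n = 3), a difference of -0.00221. This difference did not pass an exact permutation test (two-sided p = 0.4 over 20 arrangements), in which 3 against 3 libraries cannot give a p below 0.1. The slope over day was -0.00281 in beta per 10 days, with an exact permutation p of 0.0431 over 720 orders and 0.0892 after Benjamini-Hochberg adjustment over 29 slopes, those of the classes of cytosines and of the single chromosomes included. Pearson's r with day was -0.834 (exact p = 0.0431) and Spearman's rho -0.829 (exact p = 0.0583). Without the 2 days farthest from the median day, r was -0.291 (exact permutation p = 0.75), so that the size of r rested on those days, though 4 libraries with 24 orders are too few for this test to pass 0.05 and they include day 12. Without day 12, r was -0.955 (exact permutation p = 0.00833) and rho was -1 (exact permutation p = 0.0167), each value being lower than the one before. The late minus early difference was -0.00372 without day 12 and -0.000780 without day 20.

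Small differences of the same sign were found along the genome. Mean beta was lower in the late than in the early days on 18 of 19 autosomes, with differences from -0.00507 to 3.14e-05, and on 19 of 19 without day 12. The autosomes were read in the same 6 libraries, so they are not replicates and a shift of a single library moves them together. Over the 213138 cytosines in promoters, the mean was 0.101 ± 0.00109 early and 0.0995 ± 0.00165 late (SD, n = 3). Over 340866 cytosines in gene bodies outside promoters it was 0.543 ± 0.00198 early and 0.540 ± 0.00326 late, and over 134475 intergenic cytosines 0.635 ± 0.00226 early and 0.633 ± 0.00424 late. The exact permutation p-values for these 3 differences were 0.5, 0.3 and 0.4, and the adjusted p-values of their slopes over day, from exact permutation, were 0.0892, 0.0892 and 0.130. Cytosines with a mean beta of 0.2 to 0.8 over the 6 libraries (171470 of them) gave 0.543, 0.541 and 0.541 in the early and 0.526, 0.531 and 0.529 in the late libraries. Those groups did not overlap, at an exact permutation p of 0.1, the smallest possible. When the same class was set by the mean of the 6 experimental libraries, which does not use the values compared, the difference was -0.00438 in place of -0.0131, the groups overlapped and the exact permutation p was 0.4.

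Single cytosines were then compared between each pair of libraries. The mean size of their differences cannot be smaller than the difference of the 2 library means, so it is not set against it. The mean absolute difference in beta between 2 libraries ranged from 0.102 between days 5 and 20 to 0.159 between days 0 and 12. It was 0.132 both over the 6 pairs of libraries of the same phase and over the 9 pairs of an early and a late library. Without day 12 it was 0.121 over the 4 pairs of the same phase and 0.121 over the 6 pairs of an early and a late library. More days between libraries did not go with a larger distance, since the slope was -0.00869 in beta per 10 days of gap (exact permutation p = 0.619) and 0.00275 without day 12 (exact permutation p = 0.642). Days 5 and 20, 15 days apart, were the closest pair. They were also the 2 libraries with the most cytosines listed, 1716381 and 1626469. The mean distance of a library to the other 5 was lowest at days 5 and 20, 0.122 and 0.123. It was highest, 0.156, at day 12, which listed the fewest cytosines. The distance thus also went with the number of cytosines listed, and the 2 were not set apart by a test.

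Both strands of a CpG offer a check on such differences, since methylated CpGs are usually methylated on both. Over the 38449 CpGs with both cytosines listed in all 6 libraries, the level on one strand followed the level on the other, with a Pearson r of 0.725 at day 12 and 0.812 to 0.919 in the other libraries. The change from library to library did not. The Pearson r between the change on the forward and on the reverse cytosine ranged from -0.00382 to 0.0241 over the 15 pairs of libraries, with a median of 0.0137. It averaged 0.0108 within a phase and 0.0111 between phases, and 0.00801 and 0.00746 without day 12. These correlations are across CpGs, which are not independent replicates, and describe the libraries only.

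**Figure D2:**
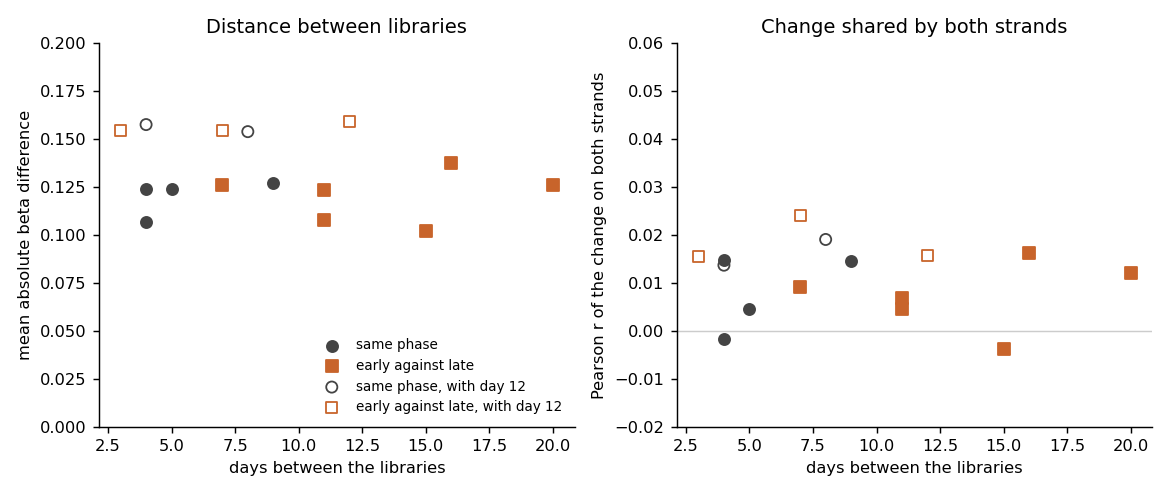
Each point is a pair of control libraries, placed by the days between them (horizontal axis) and by their mean absolute beta difference over shared cytosines (left) or by the Pearson r, across CpGs, of the change on both strands (right); circles are pairs of the same phase, squares an early and a late library, and open symbols include day 12. The open symbols lie highest on the left, between 0.154 and 0.159, and on the right, where the axis ends at 0.06, all points lie between -0.00382 and 0.0241.

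At single cytosines no late versus early change passed the test. Of the 488754 cytosines whose value varied, 0 (0%) had an adjusted p-value under 0.05 in limma on M-values, which are log2 ratios of methylated to unmethylated share, with Benjamini-Hochberg adjustment. The smallest adjusted p-value from limma was 0.232. An unadjusted p-value under 0.05 was found at 19655 cytosines (4.02%), 10662 (2.18%) higher and 8993 (1.84%) lower in the late libraries. Without day 12 such a p-value was found at 20785 of 481607 (4.32%), 9931 higher and 10854 lower, so that the larger count turned to lower. Without day 20 it was found at 32573 cytosines. For a trend over day, limma also called 0 (0%), with 16499 (3.38%) at an unadjusted p-value under 0.05 and 25904 (5.38%) without day 12, 27751 without day 20 and 5712 without day 0. Fitted to beta values, limma called 17 cytosines for late versus early, and with constant cytosines kept in the M-value fit it called 956. Constant cytosines have no variance and enter the variance that limma shares between cytosines, so these 956 are not directly comparable with the main fit. In that fit fewer cytosines, 17187, had an unadjusted limma p-value under 0.05. The 3 early and 3 late values did not overlap at 28819 cytosines (5.9%), 15332 (3.14%) higher and 13487 (2.76%) lower late, and without day 12 at 28730 (5.88%) higher and 33203 (6.79%) lower. A random split of 3 against 3 libraries leaves no overlap with a probability of 0.1 where values do not tie. With fewer libraries, as without day 12, it is more likely.

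The cytosines at the head of this ranking went from one end of the scale to the other. At 5 cytosines the beta value was 0 in all early and 1 in all late libraries, and at 6 it was 1 in all early and 0 in all late libraries. The former include position 37307218 of chromosome 2, outside any annotated gene, position 61856445 of chromosome 4, within Mup5 (a major urinary protein gene), and position 73510331 of chromosome 5, within Dcun1d4 (a neddylation factor). The latter include position 107009049 of chromosome 1, outside any annotated gene, position 190047398 of chromosome 1, in the promoter of Gm30446, and position 75138119 of chromosome 2, within 2600014E21Rik (mm10 coordinates throughout). Each of these 6 had a difference of 13.3 on the M-value scale with a standard error of 1.27, upward or downward, and an adjusted limma p-value of 0.232. No other cytosine was listed within 50 bp of the site at 107009049, and the neighbours of the other 5 had smaller mean differences. At the Dcun1d4 site the neighbour, on the opposite strand of the CpG, had a mean of 0.833 early and 0.819 late. Around the 2600014E21Rik site, 10 neighbours had a mean of 0.262 early and 0.145 late, and around the Mup5 site 2 neighbours had 0.667 and 0.919. At position 37307218 of chromosome 2 the 2 neighbours had means of 0 and 0.333, and at the Gm30446 site the single neighbour had 0.792 and 0.667. At 4 of these 5 sites the neighbours differed in the direction of the site. Cytosines within 50 bp can be read on the same fragments as the site, so these neighbours are not an independent check of it.

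The opposite strand was then read for all such cytosines. Among 1886 cytosines with an unadjusted limma p-value under 0.05 and an opposite cytosine that also differed, the opposite cytosine differed in the same direction at 52.0%, against 50.6% of all 43558 such tested cytosines. Where the groups did not overlap and the difference was over 0.5, it was 49.8% of 414. The mean difference at the former cytosines was 0.394 in size, and at their opposite cytosines 0.00916 in the same direction.

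Promoters, spanning 1500 bp before to 500 bp after a gene's start site, average many cytosines and varied less. Of 13737 promoters with 3 or more cytosines, 576 had the same mean in all libraries and 13161 were tested, with a median of 15 cytosines. No promoter passed the late versus early test. At an adjusted p-value under 0.05 limma called 0 (0%), and the smallest adjusted p-value was 0.164, at 4930524B15Rik. An unadjusted p-value under 0.05 was found at 588 promoters (4.47%), 181 higher (1.38%) and 407 lower (3.09%) in the late libraries. Without day 12 limma also called 0, and 585 (4.47%) reached an unadjusted 0.05, 263 (2.01%) higher and 322 (2.46%) lower, so that the surplus of lower promoters was smaller without that library. Without day 20 limma called 3, named below, and 909 reached an unadjusted 0.05, and with promoters of 1 or more cytosines it called 4. For the trend over day, limma called 0 (0%), the smallest adjusted p-value was 0.997, and an unadjusted 0.05 was reached by 563 promoters (4.28%), 154 (1.17%) higher and 409 (3.11%) lower. Without day 12 the trend test called 0, and 670 (5.12%) reached an unadjusted 0.05. The latter count was 228 without day 0 and 884 without day 20, again with 0 called.

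The median late minus early difference over the 13161 promoters was -0.00141 in beta, and -0.00157 without day 12. The difference was over 0.1 in size at 6.68% of them, 428 higher and 451 lower, and over 0.2 at 1.26%, 73 higher and 93 lower. Early and late values did not overlap at 1212 promoters (9.21%), of which 351 were higher (2.67%) and 861 lower (6.54%) late, and without day 12 at 874 (6.64%) higher and 1390 (10.6%) lower. A random split of 3 against 3 libraries leaves no overlap with a probability of 0.1 where values do not tie. With fewer libraries it is more likely, so the counts with and without day 12 are not directly comparable. Among the 9915 promoters with a mean beta below 0.2, which were 75.3% of those tested, 186 without overlap were higher and 702 lower, against 109 and 116 among 2324 at 0.2 to 0.8 and 56 and 43 among 922 above 0.8. Without day 12, the counts below 0.2 were 577 higher and 1029 lower. In that class the median size of the difference was 0.00625 in beta. Large differences were found where few cytosines were measured. A difference over 0.1 was seen at 24.6% of the 1709 promoters with 3 to 4 cytosines, 12.1% of the 2710 with 5 to 9, 2.74% of the 3721 with 10 to 19 and 0.597% of the 5021 with 20 or more.

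**Figure D3:**
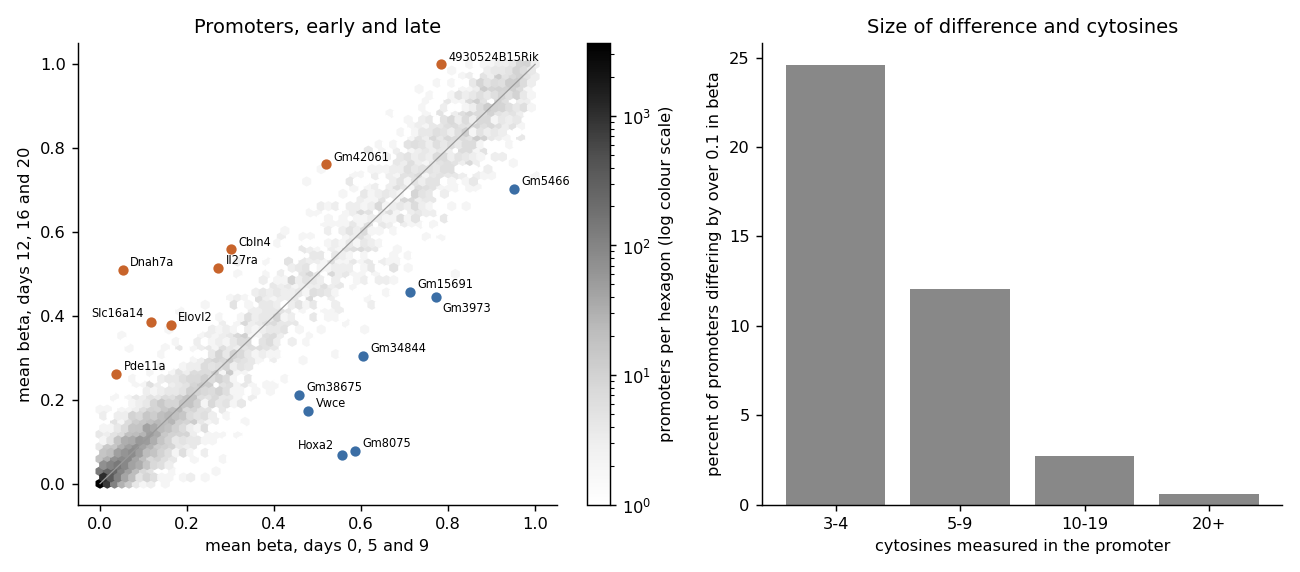
Left, mean beta of each of the 13161 tested promoters in the early (horizontal) and late (vertical) control libraries, with darker hexagons holding more promoters on a log colour scale, the line of equality in grey, and the 8 named promoters that were higher late in orange and the 8 lower late in blue. Right, the percent of promoters whose late minus early difference was over 0.1 in size, by the number of cytosines measured in the promoter, from 24.6% at 3 to 4 cytosines to 0.597% at 20 or more.

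The promoters with the largest differences were taken from those with 5 or more cytosines and no overlap of early and late values (1070 promoters), and since none passed the adjusted test they are a description. Among the 8 that were highest in the late relative to the early libraries were genes of cilia, transport, synapses, immune signalling, cyclic nucleotides and lipids. The promoter of Dnah7a, an axonemal dynein heavy chain, had 6 cytosines and beta values of 0, 0.106 and 0.0526 early and of 0.667, 0.667 and 0.198 late. Pde11a, a phosphodiesterase that degrades cAMP and cGMP, had 9 cytosines with 0.0278, 0.0370 and 0.0473 early and 0.333, 0.111 and 0.339 late. Slc16a14, of the monocarboxylate transporter family, had 0, 0.225 and 0.125 early and 0.5, 0.247 and 0.407 late over 8 cytosines. In all 3 the early libraries were low, and the lowest late library lay close to the highest early one.

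Cbln4, which encodes a secreted synapse organiser, had 0.278, 0.208 and 0.418 early and 0.667, 0.583 and 0.428 late over 12 cytosines, with day 20 next to day 9. Il27ra, the receptor chain for interleukin 27, had 0.313, 0.193 and 0.310 early and 0.846, 0.378 and 0.322 late over 13 cytosines. Its late minus early difference was 0.244, and 0.0782 without day 12, so that day 12 made most of it. The promoter of 4930524B15Rik had 0.7, 0.833 and 0.820 early and 1 in each late library over 5 cytosines, a difference of 4.80 on the M-value scale (SE 0.349, adjusted p = 0.164 from limma). Gm42061, a lncRNA gene, had 0.485, 0.524 and 0.550 early and 0.748, 0.798 and 0.737 late over 5 cytosines. In both of these promoters the late values lay well above every early value.

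Elovl2, an elongase of polyunsaturated fatty acids, had the most cytosines of these promoters, 25, with 0.302, 0.114 and 0.0743 early and 0.427, 0.393 and 0.318 late. Day 0, the library without doxycycline, was close to day 20. The difference was 1.80 on the M-value scale (SE 0.628, adjusted p = 0.898 from limma). The 250 bases upstream of its start site are shown because 12 of the 49 CpGs there were measured in all 6 libraries, and lie in a single cluster. The sequence is from RefSeq (GRCm38.p6, the assembly of mm10), chr13:41220404-41220653, minus strand, read 5′ to 3′, with the measured CpGs in capitals.
Elovl2: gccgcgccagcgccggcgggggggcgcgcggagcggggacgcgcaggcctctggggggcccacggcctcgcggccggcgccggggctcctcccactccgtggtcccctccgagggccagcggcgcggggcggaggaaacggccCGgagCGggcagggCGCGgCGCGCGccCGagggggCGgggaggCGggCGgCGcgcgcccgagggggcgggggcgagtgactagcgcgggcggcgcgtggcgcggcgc

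Over those 12 cytosines alone, the mean beta value was 0.128, 0.0919 and 0.0231 in the early and 0.222, 0.306 and 0.192 in the late libraries, again without overlap. The lowest late value, of day 20, lay just above the highest early value, of day 0.

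Among the 8 promoters that were lowest in the late relative to the early libraries, 5 belonged to lncRNA genes or a pseudogene. That kind made up 20.6% of the tested promoters, and 146 (18.6%) of the 787 with 5 or more cytosines and no overlap that were lower late. The promoter of Hoxa2, a homeobox gene of hindbrain patterning, had 8 cytosines and beta values of 0.556, 0.494 and 0.615 early and of 0, 0 and 0.206 late. The difference was -5.39 on the M-value scale (SE 1.35, adjusted p = 0.898 from limma). Without day 20 it was -6.97, and Hoxa2 was then 1 of 3 promoters past the threshold, with an adjusted limma p-value of 0.0479. The others were Gm16425 (4 cytosines) and Gm40713 (3 cytosines), both higher late, at 1 on days 12 and 16. In each of the 3 promoters the late libraries that remained, days 12 and 16, thus had the same value, at an end of the scale. Vwce, which encodes a protein with von Willebrand factor C and EGF domains, had 0.394, 0.388 and 0.654 early and 0.17, 0.159 and 0.193 late over 6 cytosines. Its late values lay close together, below every early value.

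Gm8075 had 0.470, 0.911 and 0.380 early and 0, 0.155 and 0.0800 late over 5 cytosines. Gm34844 had 0.657, 0.5 and 0.655 early and 0.302, 0.359 and 0.251 late, also over 5. Gm38675 had 0.441, 0.454 and 0.480 early and 0.174, 0.129 and 0.332 late over 6. The late libraries of these 3 lncRNA promoters were all below the early ones. Gm15691 had 0.544, 0.679 and 0.915 early and 0.331, 0.516 and 0.527 late, with day 20 next to day 0. The pseudogene Gm5466 had 0.949, 0.968 and 0.940 early and 0.889, 0.923 and 0.297 late over 9 cytosines, so that day 20 made most of its difference.

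Gm3973, a predicted protein-coding gene, was lower at each successive late day, with 0.8, 0.714 and 0.8 early and 0.6, 0.482 and 0.250 late. Its difference was -2.09 on the M-value scale (SE 0.590, adjusted p = 0.898 from limma). The sequence before its start site (RefSeq, GRCm38.p6, chr12:19489970-19490219, plus strand, 5′ to 3′) is shown because all 5 cytosines of the promoter lie in it, and the measured CpGs are again in capitals.
Gm3973: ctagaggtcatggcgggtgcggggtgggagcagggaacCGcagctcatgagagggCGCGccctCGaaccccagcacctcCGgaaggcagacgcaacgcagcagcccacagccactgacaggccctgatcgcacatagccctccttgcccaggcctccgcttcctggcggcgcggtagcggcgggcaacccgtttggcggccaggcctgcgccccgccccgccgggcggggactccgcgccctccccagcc

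Of the 16 promoters named, 13 had an entry in the RefSeq promoter table, and these 2 were the ones with 3 or more measured CpGs in the 250 bases before the start site.

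**Figure D4:**
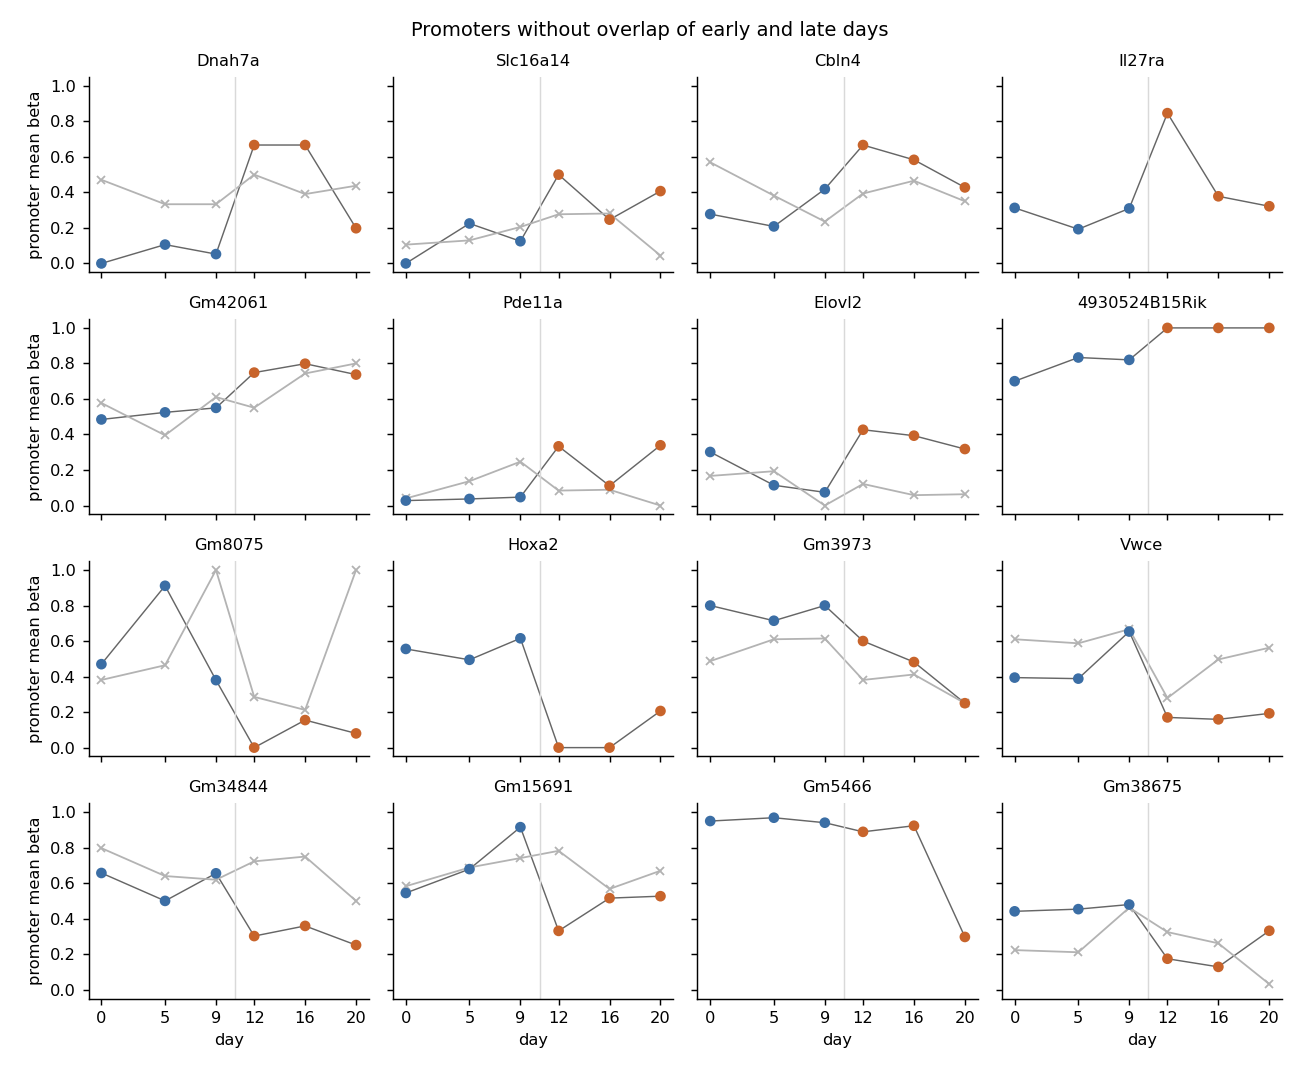
Mean promoter beta (vertical axis, 0 to 1) by day (horizontal axis) for the 8 named promoters that were higher late, from Dnah7a to 4930524B15Rik, and the 8 that were lower late, from Gm8075 to Gm38675, with early control libraries in blue, late in orange and the vertical grey line between the phases. Grey crosses are the experimental line, over the cytosines listed in all 12 libraries, and are missing where fewer than 3 such cytosines remained; in the control line each late value lies above, or each below, all early values.

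By the trend over day, the promoters with the largest fitted change from day 0 to day 20 were taken from the 633 with 5 or more cytosines and a Spearman rho of at least 0.8 in size, again as a description. Upward these were Syt8, Gm42061, 4930524B15Rik and Pde11a, and downward Gm3973, Gm5466, Gpx3 and Gm34844, so 6 of the 8 were also named above. Syt8, of the synaptotagmin family of membrane trafficking proteins, had 0.381, 0.699 and 0.709 early and 0.825, 0.874 and 0.714 late. Gpx3, the secreted glutathione peroxidase, had 0.8, 0.582 and 0.6 early and 0.6, 0.454 and 0.325 late. In Syt8 the widest gap between neighbouring days was from day 0 to day 5, the step at which doxycycline was added, and in Gpx3 days 5, 9 and 12 had nearly the same value. The adjusted p-value of the trend was 0.997 from limma for both.

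The succinate dehydrogenase genes came first among the gene lists, since SDHC is what sets this line apart. The promoter of Sdhc (10 cytosines) had beta values of 0.00714, 0 and 0.00943 early and 0.0913, 0.00909 and 0.0313 late. The groups overlapped, and the difference of 0.0384 was 0.0146 without day 12. Within the Sdhc gene outside the promoter, 5 cytosines had a mean of between 0.582 and 0.6 up to day 16 and of 0.505 at day 20. These values do not show the rearrangement of the floxed allele, which RRBS does not measure. Of the 8 genes of the list (the 4 subunits and 4 assembly factors), Sdhaf4 was at 0 in every library over 12 cytosines and 7 were tested. None was called by limma and none had an unadjusted p-value under 0.05, against 4.47% of all promoters. Sdhaf1 had 0.111 at day 0 and 0.0716 at day 12 and was at most 0.0152 in the other libraries. Sdhaf3 lay between 0.0570 and 0.0952, and Sdha, Sdhb, Sdhd and Sdhaf2 were at most at 0.0217 in all 6.

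Genes that write, read and erase DNA methylation were next. Of 10 tested promoters of the DNA methylation machinery, 0 were called by limma, 1 was lower and 0 higher at an unadjusted p-value under 0.05 (3.09% and 1.38% of all promoters), and the median difference was -0.00264 against -0.00141 over all promoters. The lower one was Mbd1, a methyl-CpG binding protein, with 0.0821, 0.152 and 0.0657 early and 0.0256, 0.0190 and 0.0271 late (adjusted p = 0.898 from limma). Its late values lay close together, below every early value. Uhrf1, the partner of DNMT1, had 0.167 at day 0, 0.0333 at day 5 and 0 at day 9, and 0.167, 0.163 and 0.146 late, so that day 0 overlapped the late days. Hells, a chromatin remodeller needed for methylation, lay between 0.856 and 1 over its 4 cytosines.

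Imprinted genes, whose control regions are methylated on the allele of a single parent, had differences from -0.230 to 0.372. Of 22 tested, 0 were called by limma, 0 were higher and 1 lower at an unadjusted p-value under 0.05, against 1.38% and 3.09% of all promoters. Early and late values overlapped in all 22, against no overlap at 9.21% of all promoters, and the median difference was -0.0165. Snurf had 0, 0.0446 and 0.0571 early and 0.286, 0.932 and 0 late. Its late libraries thus ran from the lowest to nearly the highest value possible. Meg3, a maternally expressed lncRNA, had 0.0658, 0.0804 and 0 early and 0.75, 0.250 and 0.0674 late, and its difference of 0.307 was 0.110 without day 12. Igf2r, a maternally expressed receptor, had 0.890, 0.405 and 0.493 early and 0.541, 0.225 and 0.331 late, with day 0 far above the rest.

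Germline and pluripotency genes, silenced by promoter methylation in most somatic cells, had a median over the 19 tested promoters of between 0.807 and 0.861 in the 6 libraries. Of these, 12 had a mean above 0.8 and 3 a mean below 0.2, against 7.01% and 75.3% of all tested promoters. None was called by limma, 1 was higher and 0 lower at an unadjusted p-value under 0.05 (1.38% and 3.09% of all promoters), and the median difference was 0.0139. The higher one was Dppa4, a pluripotency gene, with 0.763, 0.831 and 0.823 early and 1, 1 and 0.874 late over 3 cytosines. Sycp3, of the synaptonemal complex, had 0.875, 0.869 and 0.915 early and 0.545, 0.861 and 0.859 late, so that day 12 stood apart. Smc1b, a meiotic cohesin subunit, had 0.216, 0.225 and 0.298 early and 0.0630, 0.111 and 0.216 late, where day 20 lay next to day 0.

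Among promoters of developmental regulators, a mean beta below 0.2 was found at 18 of 31 Hox genes, 47 of 74 other developmental transcription factors and 29 of 34 Wnt genes, against 75.3% of all tested promoters. In all 3 lists the counts below stand against 1.38% of all promoters higher and 3.09% lower at an unadjusted limma p-value under 0.05. Of 31 tested Hox promoters, 0 were called by limma and 1 was higher and 1 lower at an unadjusted p-value under 0.05, the lower being Hoxa2, and the median difference was 0.000868. Hoxb8 had 0.480, 0.475 and 0.0874 early and 0.387, 0.747 and 0.461 late, and Hoxb2 had 0.286, 0.104 and 0.0905 early and 0.282, 0.195 and 0.425 late, with overlap in both. Of 74 other developmental transcription factors, 0 were called by limma and 3 were higher and 2 lower at an unadjusted p-value under 0.05, with a median difference of 0.00200. Those with the largest differences had 3 cytosines each and their highest value at day 12. Lhx9, a LIM homeobox gene, was at 0.917 at day 12 and at most 0.270 elsewhere, Foxa2 of the endoderm at 1 at day 12 and at most 0.392 elsewhere, and Gata5 at 1 at day 12 and between 0.303 and 0.833 elsewhere. Of 34 Wnt ligands, receptors and secreted inhibitors, 0 were called and 1 was higher and 1 lower at an unadjusted limma p-value under 0.05. Sfrp4, a secreted Wnt inhibitor, had 0.167, 0.0789 and 0.167 early and 0, 0 and 0.0876 late, while Dkk1, another, had 0.0333, 0.0706 and 0.160 early and 0.0125, 0.313 and 0.194 late. Wnt10a, a ligand, was at 0.473 at day 16 and at most 0.156 elsewhere. The 2 clustered protocadherins tested, Pcdhb1 and Pcdhb2, overlapped between phases, with differences of -0.0989 and -0.158.

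Most promoters of growth, translation and stress genes had little methylation, with a mean beta below 0.2 at 20 of 21 cell cycle brakes, 50 of 52 genes of mitochondrial translation and 20 of 22 stress response genes. The share over all tested promoters was 75.3%. The unadjusted counts below again stand against 1.38% of all promoters higher and 3.09% lower. Of 21 tested cell cycle brakes, 0 were called by limma and 0 had an unadjusted p-value under 0.05. The early and late values of 3 of the 21 did not overlap, all lower late, against 6.54% of all promoters lower late without overlap. Trp53, which encodes p53, was at 0.126 at day 0 and at 0 in the other 5 libraries over 3 cytosines. Cdkn2b, an inhibitor of cyclin D kinases, was at 0.125 at day 12 and at most 0.00694 elsewhere, and Rassf1, a tumour suppressor, lay between 0.628 and 0.870. Of 52 tested genes of mitochondrial translation, 0 were called and 0 were higher and 1 lower at an unadjusted limma p-value under 0.05. The lower one was Mrpl14, a protein of the large mitochondrial ribosomal subunit, with 0.0774, 0.0640 and 0.0663 early and 0.0237, 0.0129 and 0.0527 late over 54 cytosines. Mrpl33 stood at 0.254 at day 9 and at most 0.0320 elsewhere, and Mrps2 lay between 0.466 and 0.656. Of 22 tested genes of the integrated and mitochondrial stress response, 0 were called and 0 were higher and 1 lower at an unadjusted limma p-value under 0.05. Early and late values did not overlap at 4 of the 22, all lower late. Among the 52 genes of mitochondrial translation this was so at 1 higher and 1 lower. Fgf21, a hormone of metabolic stress, had 0.407, 0.687 and 0.632 early and 0.645, 0.977 and 0.907 late over 3 cytosines. Psph, of serine synthesis, lay between 0.0564 and 0.136, and Asns, asparagine synthetase, was at 0.0833 at day 0 and at 0 in the other libraries.

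The fibroblast label could be checked here only through promoter methylation, which does not show expression. Of 11 tested fibroblast marker promoters, 0 were called by limma, and 0 were higher and 1 lower at an unadjusted p-value under 0.05 (1.38% and 3.09% of all promoters). That was Fap, fibroblast activation protein, with 1, 0.961 and 0.941 early and 0.763, 0.861 and 0.838 late over 3 cytosines. Col1a1, a collagen chain, had 0.250, 0.215 and 0.216 early and 0.250, 0.329 and 0.403 late, and Pdgfra, a growth factor receptor, had 0.532, 0.605 and 0.7 early and 0.75, 0.587 and 0.763 late. Of 13 epithelial marker promoters, 0 were called, and 1 was higher and 0 lower at an unadjusted limma p-value under 0.05, with a median difference of 0.0298, and 0.0117 without day 12. The higher one was Krt5, a basal keratin, with 0.8, 0.840 and 0.769 early and 0.938, 0.873 and 0.908 late. Cldn3, of tight junctions, had 0.191, 0.199 and 0.138 early and 0.265, 0.479 and 0.204 late, and St14, a membrane protease, was at 0.402 at day 12 and at most 0.205 elsewhere. The list medians over the 6 libraries ran from 0.172 to 0.250 for fibroblast and from 0.185 to 0.293 for epithelial markers, so the 2 lists were not set apart by promoter level. Of 3 haematopoietic and 5 endothelial marker promoters tested, 0 had an unadjusted limma p-value under 0.05 in either list. The haematopoietic ones were Cd48 (0.492 to 1), Ikzf1 (0.163 to 0.476) and Coro1a (0.0871 to 0.143), and the endothelial ones with the largest differences were Kdr (0.410 to 1), Tie1 (0.515 to 0.902) and Emcn (0.624 to 0.956). In each of these 6 the early and late ranges overlapped.

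**Figure D5:**
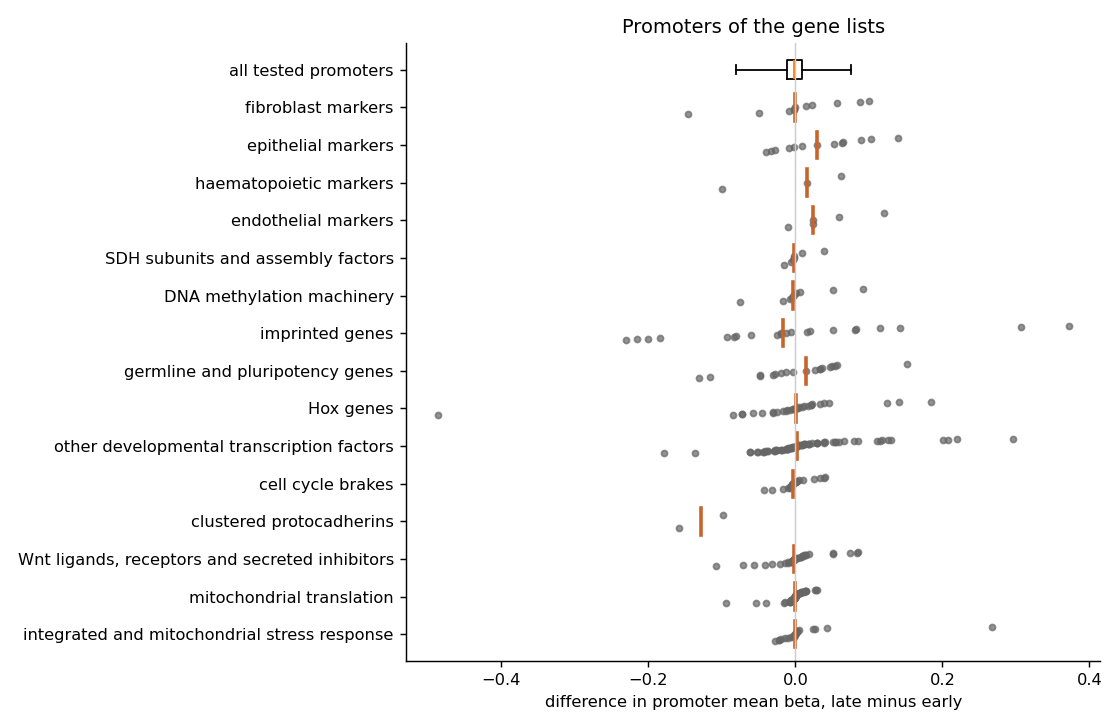
Late minus early difference in promoter mean beta (horizontal axis) for each tested member of the 15 gene lists (points), with the median of the list as an orange bar, and for all 13161 tested promoters as a box with its median and quartiles and whiskers at the 5th and 95th percentiles. List medians lie close to 0 where many members were tested, and the farthest, -0.129 for the clustered protocadherins, rests on 2 promoters; no member was called by limma.

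The same contrast in the experimental line was set beside the control line. Over the 606488 cytosines listed in all 12 libraries, the mean beta was 0.432 ± 0.00177 early and 0.430 ± 0.00300 late in the control line, and 0.443 ± 0.00366 early and 0.439 ± 0.00451 late in the experimental line (SD, n = 3). The differences were -0.00228 and -0.00363, each with an exact permutation p of 0.4. The difference between the lines in the late versus early change was tested at 13037 promoters, and limma called 0 (0%), with a smallest adjusted p-value of 0.294 and 657 (5.04%) at an unadjusted p-value under 0.05, 246 (1.89%) with a more positive and 411 (3.15%) with a more negative change in the control line. Without control day 12 it called 0, with 666 (5.11%) at an unadjusted 0.05, and without control day 20 it called 6, with 918. Without experimental day 12 it called 0, with 702. Within the experimental line alone, limma called 1 of 12921 promoters, Gm33149, which was lower late, and 615 reached an unadjusted 0.05. Early and late values did not overlap at 543 promoters higher (4.20%) and 657 lower (5.08%) late in that line.

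The sign of the difference was then set side by side in both lines. Over the 12519 promoters with a difference in both lines, which share no library, the sign was the same at 6252 (49.9%), as a description. The control differences were over cytosines listed in all 6 control libraries, and the experimental ones over those listed in all 12. Of 329 promoters without overlap that were higher late in the control line, 150 (45.6%) were also higher in the experimental line, and of 850 lower ones, 414 (48.7%) were also lower. Of those 850, 45 were lower and 41 higher without overlap in the experimental line. Over all promoters of that line the shares were 5.08% lower and 4.20% higher. Among the named promoters, Gm3973 and Vwce had late values below all early values in both lines. In the other named promoters compared, early and late values of the experimental line overlapped. In Pde11a, Elovl2, Syt8 and Gm15691 the differences of the lines had opposite signs. Gm3973 had 0.487, 0.610 and 0.614 early and 0.381, 0.412 and 0.250 late in the experimental line, and Vwce had 0.610, 0.587 and 0.667 early and 0.279, 0.496 and 0.563 late. Hoxa2, Il27ra, 4930524B15Rik, Gm5466 and Gpx3 had too few cytosines listed in all 12 libraries for this comparison.

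The change on both strands was also described in both lines. Over 30393 CpGs with both cytosines in all 12 libraries, the Pearson r of the change on the forward and reverse cytosine averaged 0.0101 within a phase and 0.00778 between phases in the control line. In the experimental line it averaged 0.0172 within and 0.0366 between phases, and without day 12 it averaged 0.000159 and 0.0528, against 0.00701 and 0.00381 in the control line. The values are across CpGs of the same libraries, and the difference between the lines was not tested.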

How the data were processed

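RRBS was performed on 12 libraries, and the 6 control libraries were analysed here, with the experimental line for comparison. Per the labels and the study's methods, the authors mapped paired-end reads with Bismark (version not given in the sources used here) to the mm10 genome, ran its methylation extractor and deposited the percent of reads methylated per CpG cytosine. The authors' later filters in RnBeads are not part of these values. The deposited percent was divided by 100 to give beta. No read counts accompany it, so no coverage minimum or interval was set.

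Autosomal cytosines listed in all 6 libraries were kept, each strand on its own, and those with constant values were left out of tests. Of the cytosines lying in RefSeq promoter sequences, 81967 sat on a CpG and 0 did not. Promoters (3 or more cytosines) came from RefSeq genes of GRCm38.p6, with strand from that table or, by symbol, from an older build's annotation (33544 of 47042 autosomal genes had a strand; 15489 of 15532 were the same in both). limma 3.58.1 in R 4.3.3 was fitted to log2((beta + 0.01) / (1 - beta + 0.01)), for late versus early and for day as a number, adjusted by Benjamini-Hochberg, at a threshold of 0.05. Exact permutation tests, two-sided, compared library means (Python 3.11.15, scipy 1.17.1). A fit of 4 groups over 12 libraries gave the difference between the lines.

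Named promoters had 5 or more cytosines and no overlap of early and late values (or a Spearman rho of 0.8 or more in size with day). They were ordered by the size of the difference, 8 each way (4 for the trend), with 3 sites each way and, from each gene list, the 3 members with the largest difference. The members, lists and tests were chosen with earlier results of these data known. On simulated data made from the promoters, with 200 of 13161 changed by 4 on the M-value scale, limma called 125 (62.5%) for late versus early and 60 (30%) for the trend, and at a change of 2 it called 0. Of 200 cytosines changed by 8 among 100000, it called 0, which limits what the test on single cytosines can show. The alternatives tried are given in the closing section. The names of the 4 promoters called with 1 or more cytosines per promoter are not reported here.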

Additional observations from a re-analysis of the deposited data

Results flagged for a closer look

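In 5 of 23 measures of the control libraries, the day 12 library lay farther from the other 5 than Dixon's 95% limit for 6 values allows. Chance gives this in about 1 in 20 groups, and the measures are not independent of each other, since 4 of them describe the same distribution of beta values. At day 12 the median beta was 0, the share of cytosines below 0.2 was 53.0%, the share from 0.2 to 0.8 was 9.26%, the share above 0.8 was 37.7%, and the mean absolute difference to the other libraries was 0.156. None of the named promoters had early and late values apart in opposite directions in the 2 lines.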

How the results depend on the processing

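limma called 0 under each alternative except these. For late versus early cytosines it called 17 on beta values and 956 when constant cytosines, which have no variance, were kept. For late versus early promoters it called 4 with 1 or more cytosines per promoter, and 0 to 3 when single libraries were left out, the 3 without day 20. For the difference between the lines the range over left-out libraries was 0 to 6, the 6 without control day 20. With day as a block, which the lines share, limma called 0, and 702 against 657 had an unadjusted p-value under 0.05; day did not pair the libraries, since the deviations of same-day libraries correlated by -0.0379 to 0.0125. At an unadjusted p-value under 0.05, leaving out day 20 gave 909 promoters and 32573 cytosines for late versus early, and 884 and 27751 for the trend; leaving out day 0 gave 228 and 5712 for the trend, and leaving out day 12 gave 25904 cytosines. With both strands averaged, 1186 of 29334 CpGs and 88 of 2016 promoters (late versus early), and 1047 and 113 (trend), did so. Promoters with an unadjusted p-value under 0.05 were lower late in 69.2% of cases, and in 55.0% without day 12, the lowest share of any alternative; for the trend the share was 72.6%, 61.8% without day 0 and 82.4% with trended variance.

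Without day 12, groups did not overlap at 874 promoters higher and 1390 lower, and at 28730 cytosines higher and 33203 lower. Groups without overlap are more likely with fewer libraries, so these counts cannot be set directly beside those with day 12. The mean beta difference kept its sign throughout, from -0.00372 to -0.000780 with each library left out, and as a slope per day (-0.000281) its exact permutation p was 0.0431 unadjusted and 0.0892 adjusted. With classes of level set by the experimental libraries, the difference at 0.2 to 0.8 was -0.00438, and above 0.8 it reversed from 0.0124 to -0.00189; these alternatives and the counts of groups without overlap that leave out day 12 were chosen after seeing the data. Of 323 refits of named promoters none changed sign and 1 passed the threshold. These promoters were picked for groups without overlap, or for a high rho with day. That their sign was kept was therefore largely set by the choice. The cause of the changes between settings was not tested. Depth is unknown, which limits what single cytosines can show.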

Other observations

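Cytosines outside the autosomes were left out of the comparisons. On the X chromosome, 16782 cytosines were listed in all 6 control libraries, with a mean beta of 0.529, 0.518 and 0.522 on days 0, 5 and 9 and of 0.525, 0.518 and 0.509 on days 12, 16 and 20. In the mitochondrial genome, 11 cytosines were listed in all 6, and their mean beta was at most 0.00209 in any library.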
